A study of Helianthus annuus with 9 samples.

Results

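Among the predicted small interfering RNAs (siRNAs) of sunflower seeds, 40 of 24 nt were listed at 0 reads in every library of day 7 and at 10 or more reads in all 3 libraries of day 22, or in all 3 libraries of day 37. They were chosen by these read counts, so their absence at day 7 and their presence later describe the choice and carry no test. They are 40 of 2883 siRNA entries with a 24-nt guide, the strand taken to be the active one, of 7735 siRNA entries and of 8473 small RNA entries in all. The length and the listed counts fit the name given to the set, with 1 exception in novel_sir11457, whose guide is also listed under another entry that was read at day 7. For members with few reads, a listed 0 at day 7 does not by itself show that they appeared later, as the bounds below show.

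The seeds came from the line L-1-OL-1 of Helianthus annuus, the sunflower, grown in a field, with 3 libraries from each of days 7, 22 and 37. All groups share the line and no treatment is labelled, so the groups differ by the day of collection alone as far as the labels go. The sources used here do not say from which event the days run, nor whether each library is a separate plant, so a p-value reflects only how these libraries vary, which may be technical. Seeds hold embryo, endosperm and maternal seed coat, and in such bulk samples fewer cells of a type and less RNA per cell cannot be told apart.

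A library held 31011803 to 34397084 reads. Of these, 2208822 to 2327154 stood in small RNA entries at day 7, 3330516 to 3674565 at day 22 and 3748994 to 4050364 at day 37. The libraries of day 7, where the members are at 0, thus had the fewest reads in small RNA entries. The 24-nt entries held 322532 to 453482 reads per library. The number of 24-nt entries listed was 2537 to 2641 per library at day 7, 1577 to 1622 at day 22 and 1174 to 1249 at day 37. The lowest count listed for any siRNA is 10, so a 0 was taken to allow up to 9 reads.

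In plants, 24-nt siRNAs are cut by the Dicer-like enzyme DCL3 from double-stranded RNA that starts with RNA polymerase IV, and they guide DNA methylation at transposons and repeats. In Arabidopsis the Argonaute proteins of the AGO4 group, which bind them, favour guides that begin with A, while AGO1 favours a first U and AGO5 a first C. The 22-nt and 21-nt siRNAs come mainly from DCL2 and DCL4, act largely on transcripts, and in many plants arise from messenger RNA copied by RNA-dependent RNA polymerase.

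The guides of the 10 members with the highest mean level at days 22 and 37 are shown first because they carried most of the reads. They are written as DNA from 5′ to 3′ as deposited, and the capital marks the first base, which Argonaute proteins read.
novel_sir5424: Cagacctgaaggtcgttggccgag
novel_sir17923: Tgtcattgcggagtatccagaagt
novel_sir9870: Cagctctagatcgacaatatacag
novel_sir11595: Tagagaccgagtggcgtggctagt
novel_sir14912: Ctcttgtcgacaacgctgtgcaag
novel_sir9289: Cacagcgttgtcgacaagagcctt
novel_sir17847: Ggacaatgaagtgtgaaacgaagg
novel_sir11896: Aatttatgaagactggtctatagt
novel_sir7614: Cgctcaactcaaggctcttgtcga
novel_sir14005: Aggcggtcatgaattggcaagagc
Of these 10 guides, 5 begin with C, 2 with T, 2 with A and 1 with G. No guide could be placed on a gene or transposon here, since no genome sequence was used.

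Appearance after day 7 was rare in the 24-nt class. The same rule took 1.39% of 24-nt entries, against 14.8% of 21-nt entries (411 of 2771) and 23% of 22-nt entries (393 of 1705). It took 1.99% of 23-nt entries (5 of 251) and 10.4% of 20-nt entries (8 of 77). The opposite course, 10 or more reads in every day 7 library and 0 in all 6 later ones, was met by 754 of the 24-nt entries, or 26.2%. A further 985 of the 24-nt entries had 10 or more reads in all 9 libraries. At day 7 a total of 77 of the 24-nt entries were listed at 0 in every library, and 37 of them missed the later limit.

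Of the 40 members, 26 had 10 or more reads in all 6 later libraries, 9 entered through day 37 alone and 5 through day 22 alone. Together they held 6006, 7215 and 6753 reads at day 37, and 2688, 2527 and 2853 reads at day 22. Their share of the reads in small RNA entries was 0.172% ± 0.00985 at day 37 and 0.0768% ± 0.00089 at day 22 (SD, n = 3 each), which is 2.23 times as much at day 37. The libraries of the later days did not overlap in this share. As a share of all reads the ratio of day 37 to day 22 was 2.55, and as a share of the reads in 24-nt entries it was 2.07.

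The reads were concentrated in few members. Over the 6 later libraries novel_sir5424 alone held 18.4% of the member reads, the top 3 members held 35.5% and the top 10 held 65.3%. The median member had a mean of 74.5 reads per later library, with 5.17 as the lowest and 858.8 as the highest.

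**Figure D1:**
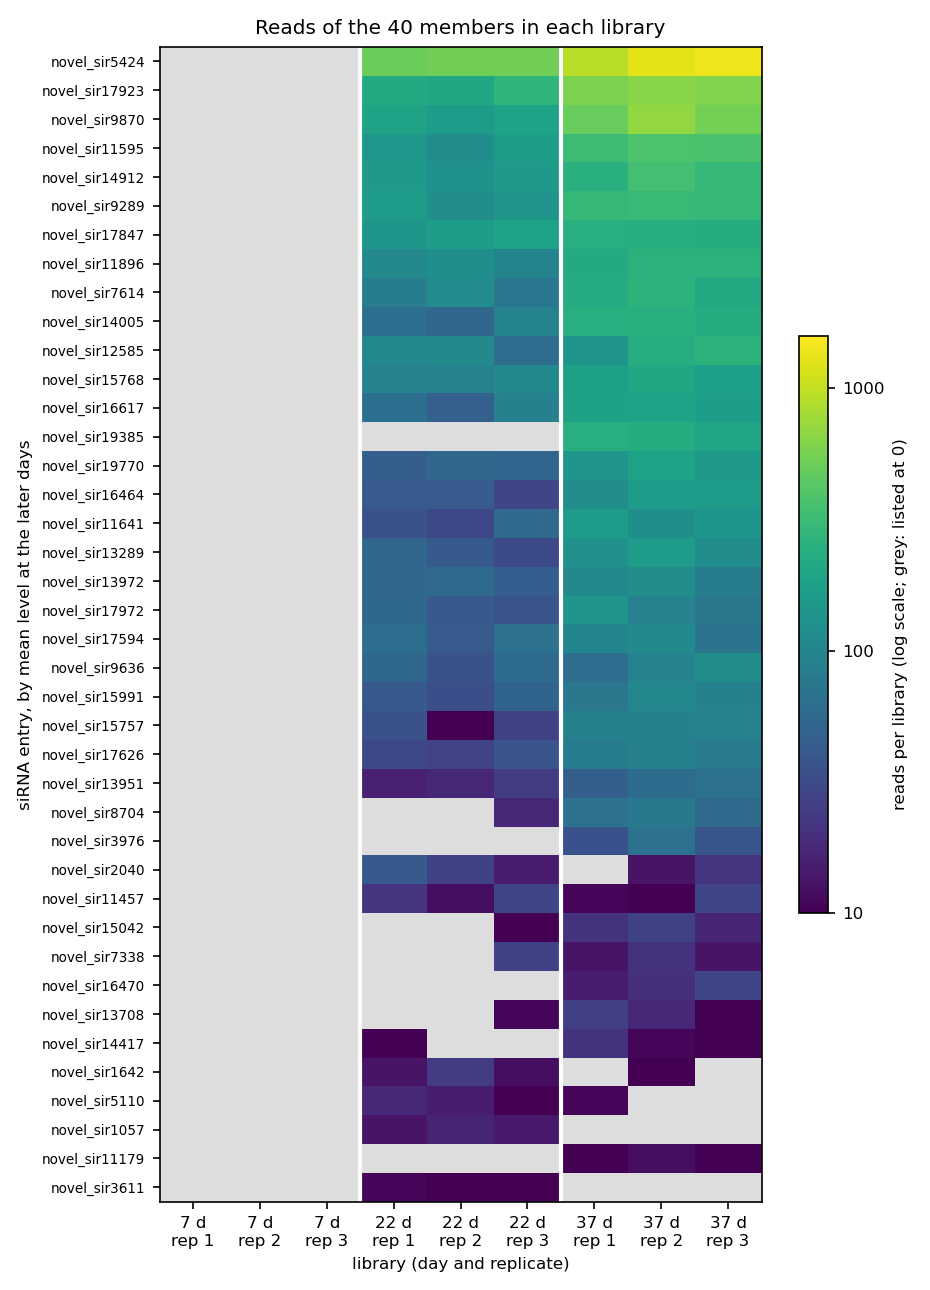
Reads of the 40 members (rows, by mean level at the later days) in each of the 9 libraries (columns, days 7, 22 and 37), coloured on a log scale of reads per library, with grey for entries listed at 0. The day 7 columns are grey by choice of the members, the top row novel_sir5424 has 917 to 1392 reads at day 37 and 503 to 533 at day 22, and grey cells at the later days gather among the members with few reads.

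The most abundant member, novel_sir5424, had 917, 1283 and 1392 reads at day 37, and 503, 525 and 533 reads at day 22. If a 0 allows up to 9 reads, its level scaled with TMM factors was at least 146-fold that of day 7 at day 37. At day 22 it was at least 51.2-fold that of day 7. Bounds fell with the level of the member. For novel_sir17972, at rank 20 by level, they were 12.8-fold at day 37 and 4.41-fold at day 22. Near the limit they were 1.31-fold at day 37 for novel_sir11179 and 1.02-fold at day 22 for novel_sir3611. Some bounds were below 1, such as 0.382 at day 37 for novel_sir1642, and show no rise over day 7. These bounds leave out counting error and replicate spread and hold for this scaling only. The factors were 1.34 to 1.41 at day 7 and 0.693 to 0.743 at day 37, so library totals alone would give lower bounds. Levels below are CPM, reads per 1000000 small RNA reads after scaling with TMM factors, and differences are fitted log2 ratios of day 37 over day 22 from edgeR's quasi-likelihood test with Benjamini-Hochberg adjustment over the 7294 small RNAs tested. The level of novel_sir5424 was 423.3 ± 68.8 CPM at day 37 and 148.4 ± 13.2 CPM at day 22 (SD, n = 3 each), a log2 difference of 1.51 ± 0.145 (SE; adjusted p = 0.000217) or 2.85-fold.

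The next member, novel_sir17923, had 586, 643 and 606 reads at day 37, and 221, 210 and 276 reads at day 22. Its level was 217.6 ± 6.88 CPM at day 37 and 66.7 ± 4.28 CPM at day 22, 3.26-fold higher at day 37 (adjusted p = 1.45e-05). No other siRNA entry shared 16 or more bases with it.

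Next came novel_sir9870, a member with 3 overlapping 22-nt entries. It had 487, 692 and 549 reads at day 37, and 184, 165 and 188 reads at day 22. It was 4-fold higher at day 37 (log2 difference 2.00, adjusted p = 2.09e-05), and all its day 37 libraries lay above all its day 22 libraries.

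The other 7 of the 10 showed the same direction. novel_sir11595 had 323, 377 and 371 reads at day 37, and 149, 121 and 172 reads at day 22 (log2 difference 1.61). novel_sir14912 had 251, 348 and 294 reads at day 37, and 152, 131 and 155 reads at day 22 (1.35). In both, the days were apart in every library. novel_sir9289 had 293, 309 and 294 reads at day 37, and 164, 122 and 138 reads at day 22 (1.40). novel_sir11896 had 221, 260 and 257 reads at day 37, and 108, 125 and 98 reads at day 22 (1.46). novel_sir7614 had 224, 263 and 216 reads at day 37, and 85, 115 and 73 reads at day 22 (1.67). In these 3 the days were again apart in every library. novel_sir14005 had 241, 250 and 232 reads at day 37, and 63, 53 and 96 reads at day 22 (2.11, 4.32-fold). novel_sir17847 had 238, 237 and 231 reads at day 37, and 145, 168 and 188 reads at day 22. It showed the smallest difference of the 10, 0.82 on the log2 scale or 1.77-fold (adjusted p = 0.00198), and with library totals as the only scaling it was 0.35 (adjusted p = 0.0563), no longer past the threshold.

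The step between the later days was not used by the rule for the 26 members read at both. Of these, 25 rose at day 37 against day 22 and 0 fell, beside 18.8% of all small RNAs tested that were higher and 31.8% that were lower. At an unadjusted p under 0.05, edgeR and DESeq2 each also gave 25 higher and 0 lower. The share of all small RNAs at that unadjusted threshold was not worked out, so these counts have no background beside them. In each of the 25, all CPM of day 37 exceeded all CPM of day 22, which was so for 22.7% of all small RNAs tested. The median log2 difference was 1.57, or 2.97-fold, with quartiles of 1.36 and 1.97, against -0.15 over all small RNAs tested.

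Of the 1009 other 24-nt siRNAs with 10 or more reads in all later libraries, 139 were higher at day 37 (13.8%) and 407 were lower (40.3%), with a median log2 difference of -0.39. Among the shorter siRNAs chosen by the same rule and read in all later libraries, of 272 22-nt entries 233 were higher (85.7%) and 4 lower, with a median of 1.61, and of 187 21-nt entries 102 were higher (54.5%) and 17 lower, with a median of 1.08. These are descriptions of lists whose entries can share a locus.

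The size of the difference moved with the scaling. TMM factors were 0.693 to 0.743 at day 37 and 0.965 to 1.05 at day 22, which raises CPM at day 37. Library totals alone gave a median of 1.10 for the 26 members with 22 higher and 0 lower, and TMM factors from the 24-nt entries gave 1.94 with 25 and 0. They shifted the median of all small RNAs by -0.47 and 0.15, and the share of higher calls among all calls was 23.7% and 51.0%, beside 37.1% with TMM factors of the whole table.

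**Figure D2:**
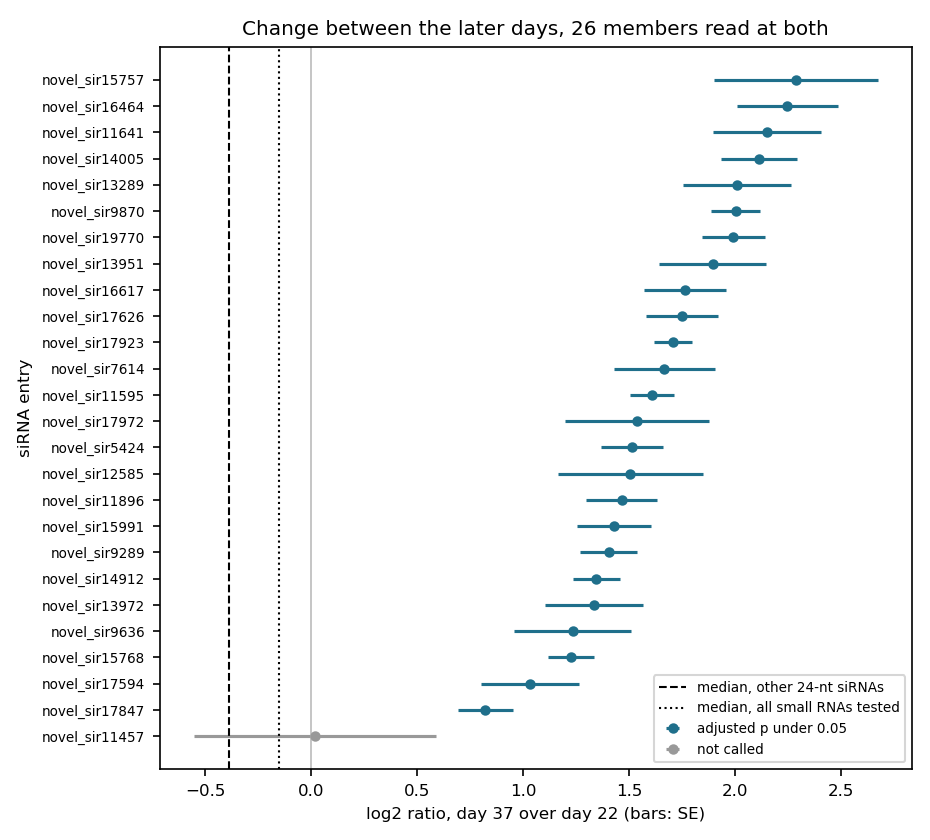
Fitted log2 difference of day 37 over day 22, with bars of 1 SE, for the 26 members read in all 6 later libraries. The dashed and dotted lines mark the medians of the 1009 other 24-nt siRNAs (-0.39) and of all small RNAs tested (-0.15). 25 members lie right of both, around a median of 1.57, and novel_sir11457 lies at 0.02.

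Of the 5 largest rises, 4 were in members outside the 10 most abundant. novel_sir15757 had 92, 92 and 94 reads at day 37, and 35, 10 and 27 reads at day 22, a log2 difference of 2.29 ± 0.386 (SE; adjusted p = 0.00289). novel_sir16464 had 121, 162 and 160 reads at day 37, and 43, 43 and 29 reads at day 22 (2.25 ± 0.239, adjusted p = 0.000346). In both, every day 37 library lay above every day 22 library, and the day 22 libraries of novel_sir15757 spanned 10 to 35 reads. novel_sir11641 followed with 161, 125 and 143 reads at day 37, and 35, 30 and 58 reads at day 22 (2.15, adjusted p = 0.000563). novel_sir14005, given above, came next. novel_sir13289 followed with 129, 160 and 121 reads at day 37, and 53, 42 and 31 reads at day 22 (2.01, adjusted p = 0.000784). Its place among the 5 was not resolved. Its 2.01 ± 0.255 (SE) stood beside 2.00 ± 0.114 for novel_sir9870, which is among the 10 most abundant. Without day 22 replicate 3 the order was reversed, with 1.80 for novel_sir13289 and 1.99 for novel_sir9870.
novel_sir15757: Tagtagtagccactacccgccact
novel_sir16464: Cttggccggatcttgaaagacacc

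The 1 member of the 26 without a called difference was novel_sir11457, with 11, 10 and 29 reads at day 37, and 22, 12 and 29 reads at day 22 (log2 difference 0.02 ± 0.571, adjusted p = 1). Its days overlapped, and the sign of this small difference was not stable to the scaling. Its guide, Atctcattggccaagacaagtagt, is letter for letter that of the entry novel_sir11458, which had 20, 12 and 37 reads at day 7, 25, 19 and 34 at day 22, and 13, 19 and 18 at day 37. The guide sequence was therefore read at day 7 under another name, and novel_sir11457 is a member by its entry and not by its sequence.

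The coefficient of variation of CPM over the 26 members had a median of 9.1% at day 37, with a range of 2.7% to 63.2%, and a median of 16.9% at day 22, with a range of 3.97% to 51.6%. The mean reads behind these values had a median of 170 at day 37 and 62.2 at day 22.

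For the members that entered through a single day, a difference between the later days follows from the choice and is only described. At 0 in every day 22 library were novel_sir19385 with 240, 229 and 200 reads at day 37, novel_sir3976 with 36, 66 and 39, novel_sir16470 with 15, 20 and 29, and novel_sir11179 with 10, 12 and 10. Of these 4, novel_sir19385 was the highest and novel_sir11179 the lowest. At 0 in every day 37 library were novel_sir1057 with 13, 17 and 14 reads at day 22, and novel_sir3611 with 11, 10 and 10.
novel_sir19385: Taaccaagggccaaatcgcaaagt
novel_sir3976: Actctagcgttattctttttggtt
novel_sir16470: Tagctctacctcgtatttcacatt
novel_sir1057: Aatcataggccatagcaaagctat

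The other 5 members of day 37 alone had some reads in 1 day 22 library. novel_sir8704 had 67, 77 and 58 reads at day 37, and 0, 0 and 18 reads at day 22. The remaining 4, novel_sir15042, novel_sir7338, novel_sir13708 and novel_sir14417, had 10 to 27 reads in each day 37 library, and novel_sir7338 had its highest count in a day 22 library, with 13, 21 and 13 reads at day 37, and 0, 0 and 27 reads at day 22. The other 3 members of day 22 alone were novel_sir2040, novel_sir1642 and novel_sir5110, each with reads in 1 or 2 day 37 libraries. novel_sir2040 had 0, 13 and 22 reads at day 37, and 41, 27 and 15 reads at day 22, so its days overlapped. Of the 40 members, 37 passed the filter on low counts, and novel_sir14417, novel_sir11179 and novel_sir3611 did not.

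The members just inside the limit were novel_sir3611 and novel_sir11179, given above. Just outside it, novel_sir16509 had 29, 42 and 0 reads at day 37, and 10, 15 and 0 reads at day 22, and novel_sir5255 had 64, 14 and 0 reads at day 37, and 0 in every day 22 library. The limit of 10 reads is also the lowest count listed, so entries outside it were listed at 0 in a library, which may stand for up to 9 reads.

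The first base of the guide was not used by the rule. Of the 40 members 15 began with A (37.5%), 12 with C (30%), 8 with T (20%) and 5 with G (12.5%). A stood first in 90.5% of the 24-nt entries lost after day 7 (682 of 754), in 77.3% of those read in all libraries (761 of 985) and in 84.6% of all 24-nt entries (2438 of 2883). The 22-nt and 21-nt siRNAs chosen by the same rule began with A in 29.8% and 38.9% of entries, and with C in 50.4% and 40.4%. Members can share a locus, so these shares are given without a test.

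Weighted by reads at the later days, members that began with C held 52.9% of the member reads, those with T 22.8%, those with A 17.4% and those with G 6.9%. Among the 26 members read at both later days 11 began with C and 7 with A (26.9%). All 5 members of day 22 alone began with A, and 3 of the 9 of day 37 alone did. GC content was 48.4% ± 9.7 in the members (SD over 40 guides), against 43.0% in the lost entries, 47.7% in those read in all libraries and 45.2% in all 24-nt entries.

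**Figure D3:**
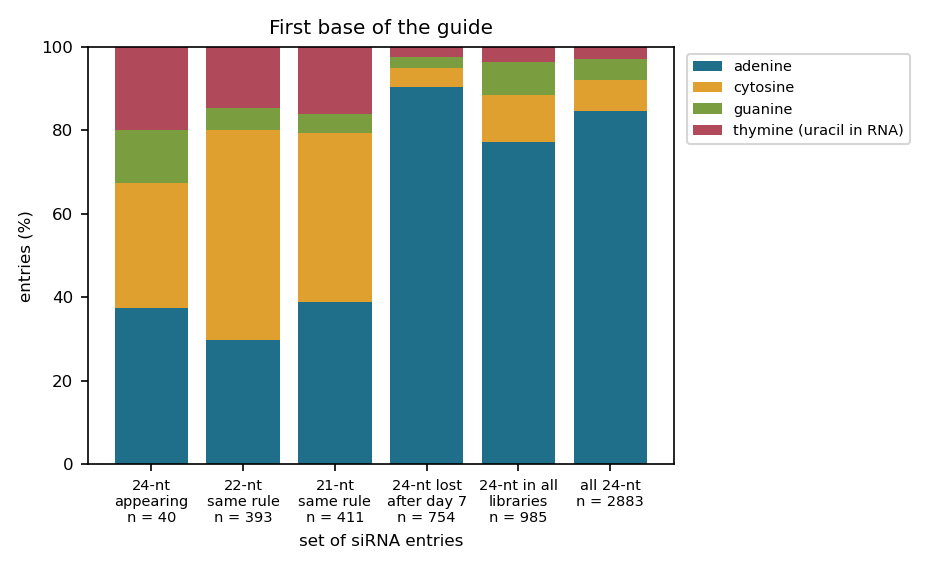
Share of guides (percent of entries) that begin with each base, in the members and in 5 other sets of siRNA entries. A takes 37.5% of the members, 90.5% of the 24-nt entries lost after day 7 and 84.6% of all 24-nt entries, while the 22-nt and 21-nt entries of the same rule stand at 29.8% and 38.9%.

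Overlap with other guides was not used by the rule either. A neighbour is here another siRNA entry whose guide shares a run of 16 or more bases with the member's guide or its reverse complement, so it may derive from the same stretch of RNA, from its other strand, or from a repeated sequence. At least 1 neighbour was found for 28 of 40 members (70%), against 67.2% of the 24-nt entries read in all libraries, 37.9% of the lost entries and 49.7% of all 24-nt entries. A 21-nt or 22-nt neighbour was found for 24 members (60%), against 3.45% of the lost entries, 20.5% of those read in all libraries and 11.5% of all 24-nt entries. In the 22-nt and 21-nt siRNAs chosen by the same rule, such a neighbour was found for 52.2% and 41.1% of entries. A 24-nt neighbour was found for 11 members (27.5%), against 37% of the lost entries, 58.8% of those read in all libraries and 44.8% of all 24-nt entries. It was found for 10.4% of the 22-nt and 3.41% of the 21-nt entries of the same rule, so the members lay between these lists and the other 24-nt sets.

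Counted as links between a member and a neighbour, other members included, 53 of 85 went to a 22-nt entry (62.4%), 16 to a 24-nt entry (18.8%), 12 to a 21-nt entry (14.1%) and 4 to a 23-nt entry (4.71%). Over all 24-nt entries 70.2% of 5701 links went to another 24-nt entry and 7.68% to a 22-nt entry. For the 22-nt siRNAs chosen by the same rule, 63% of 440 links went to a 22-nt entry, and for the 21-nt ones 30.5% of 344 did and 59% went to a 21-nt entry. Of the 16 links to 24-nt entries, novel_sir11457 held several, and without this member the 22-nt share was 67.9%. A neighbour on the opposite strand was found for 15 members (37.5%), against 11.1% of the lost entries, 36% of those read in all libraries, 22.1% of all 24-nt entries, and 22.6% of the 22-nt and 4.38% of the 21-nt siRNAs of the same rule.

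**Figure D4:**
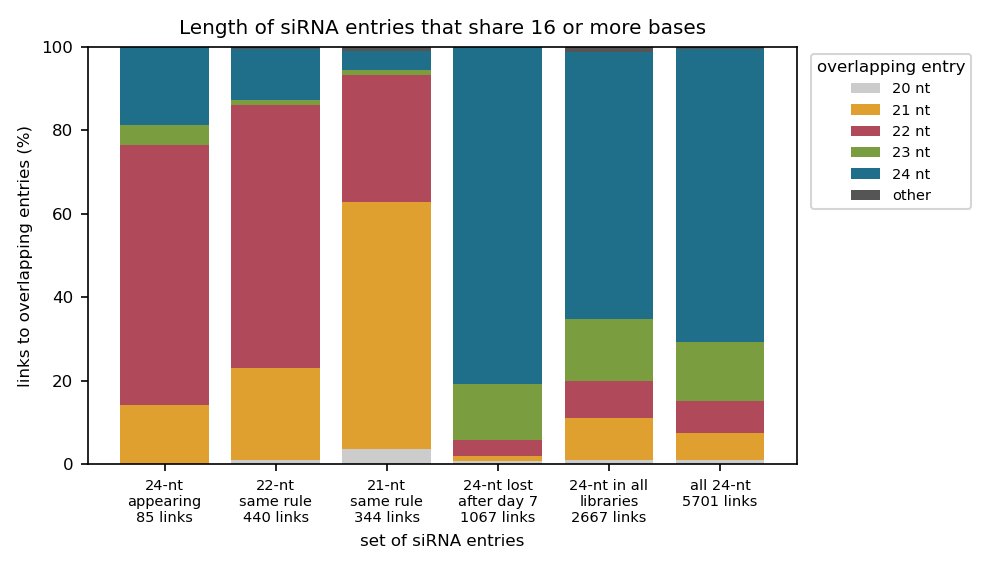
Length of the entries that share 16 or more bases with a guide, as a percentage of links, for the members and for 5 other sets of siRNA entries. 22-nt entries make up 62.4% of the 85 links of the members, 63% of the 440 links of the 22-nt siRNAs of the same rule and 7.68% of the 5701 links of all 24-nt entries, where 24-nt entries hold 70.2%.

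The runs shared with 22-nt entries are shown in capitals for 3 of the members with the most reads or the largest rise. Each stands above 1 of its 22-nt neighbours, of which these members have 3, 5 and 2. All 3 neighbours shown were read in a day 7 library, as were 11 of the 44 neighbours of 22 nt.
novel_sir9870: caGCTCTAGATCGACAATATACAG
novel_sir13648: CTGTATATTGTCGATCTAGAGC
novel_sir5424: cagaCCTGAAGGTCGTTGGCCGAG
novel_sir14237: ctCTCGGCCAACGACCTTCAGG
novel_sir16464: CTTGGCCGGATCTTGAAAGACAcc
novel_sir14059: CTTGGCCGGATCTTGAAAGACA
In the first and second pair the neighbour is on the opposite strand, with a shared run of 22 and 20 bases. In the last pair it is on the same strand and lies wholly inside the member. Over the 53 links to 22-nt entries 36 were on the same strand and 17 on the opposite one. Of the same-strand neighbours 4 began at the member's first base and 5 ended at its last, and no expected number was worked out. Wholly inside the member lay 10 on the same strand and 6 on the opposite one.

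Members with and without 21-nt or 22-nt neighbours were then set side by side, without a test. Of the 24 with one, 4 began with A (16.7%), 19 were read at both later days, 5 entered through day 37 alone and 0 through day 22 alone, and their median was 99.4 reads per later library. Of the 16 without such a neighbour, 11 began with A (68.8%), 7 were read at both later days, 4 entered through day 37 alone and 5 through day 22 alone, and their median was 15.6 reads. The highest members without such a neighbour were novel_sir17923 and novel_sir11896.

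The neighbours themselves were 68 entries that are not members. Of the 44 of 22 nt, 32 met the same rule of appearance, which 23% of all 22-nt entries met, and 11 were read in a day 7 library. Summed over the 44, reads were 194, 195 and 230 at day 7, 7651, 7178 and 8635 at day 22, and 15271, 19340 and 17236 at day 37. The 22 members that have such neighbours held 4445, 5472 and 5149 reads at day 37, and 1969, 1871 and 2028 reads at day 22. The 22-nt neighbours thus held 3.35 to 3.53 times the reads of these members at day 37, and 3.84 to 4.26 times at day 22.

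Of the 44, 35 had 10 or more reads in all later libraries, and all 35 were higher at day 37 than at day 22, with a median log2 difference of 1.55. Higher were also 85.7% of the 22-nt siRNAs of the same rule given above, with a median of 1.61, and 18.8% of all small RNAs tested. The 9 tested 21-nt neighbours were all higher as well, with a median of 1.48, beside 54.5% of the 21-nt siRNAs of the same rule. The 10 neighbours of 24 nt were all read at day 7. This followed largely from the choice, since a 24-nt neighbour that met the rule is itself a member and was left out here. Over all small RNAs tested 31.8% were lower. The other 24-nt siRNAs given above stood at 13.8% higher and 40.3% lower, with a median of -0.39. Beside these shares, of the 9 tested neighbours of 24 nt, 2 were higher and 3 lower at day 37, with a median of -0.23. The 3 lower ones, novel_sir11459, novel_sir18792 and novel_sir732, all overlap the single member novel_sir11457. The 2 higher ones, novel_sir18526 and novel_sir7230, overlap other members, so the median leans on the neighbours of novel_sir11457. First bases of the 44 neighbours of 22 nt were C in 21, A in 17, T in 5 and G in 1.

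In 14 of 40 members (35%) a neighbour was read at day 7, so a sequence that overlaps theirs was read then, against 37.9% of the lost entries, 66.6% of those read in all libraries and 48.9% of all 24-nt entries. The count was 9 with runs of 20 or more bases. It was 5 when only 24-nt neighbours were taken. A neighbour that itself appeared after day 7 was found for 23 members (57.5%), against 45% of the 22-nt and 26% of the 21-nt siRNAs of the same rule and 1.63% of all 24-nt entries. For a neighbour read at day 7 these same-rule lists stood at 16.3% and 19.7%.

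Some neighbours were much more abundant than the member. The 22-nt novel_sir12307, guide gttgtcgacaagagccttgagt, overlaps novel_sir9289 and novel_sir7614 and had 20, 11 and 21 reads at day 7, 1042, 1049 and 1186 at day 22, and 1613, 2311 and 2088 at day 37. The 21-nt novel_sir8703, guide cggttgtgtgtatggtagctc, forms the 3′ end of novel_sir8704 and had 13, 15 and 0 reads at day 7, 1125, 1148 and 1309 at day 22, and 3368, 3592 and 3225 at day 37. Both were listed at day 7 at low counts, where the overlapping members were at 0. The 24-nt novel_sir7230, guide aatcaagggccaaatcgcaaagtt, overlaps novel_sir19385 and had 14, 16 and 34 reads at day 7, 29, 17 and 35 at day 22, and 315, 474 and 416 at day 37. Its log2 difference between day 37 and day 22 was 4.21 (adjusted p = 8.92e-06), so the member listed at 0 at day 22 stands beside a 24-nt entry that was read throughout and was high at day 37.

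Members overlapped each other in 3 pairs, shown with the shared run in capitals.
novel_sir11641: caaCGCTCCCGTGTTGACGCTACC
novel_sir15991: CGCTCCCGTGTTGACGCTACCaga
novel_sir13289: gTTTCTTCAGTCTTCTTGGCGATC
novel_sir13951: aGATCGCCAAGAAGACTGAAGAAA
novel_sir14912: CTCTTGTCGACAACGCTGTGcaag
novel_sir9289: CACAGCGTTGTCGACAAGAGcctt
The first pair is on the same strand with 21 shared bases, and the other two are on opposite strands, with 23 shared bases for novel_sir13289 and 20 for novel_sir14912. novel_sir15991 had 75, 104 and 92 reads at day 37, and 41, 34 and 51 reads at day 22, a log2 difference of 1.43 where its partner novel_sir11641 had 2.15. novel_sir13951 had 46, 60 and 67 reads at day 37, and 16, 18 and 24 reads at day 22, a log2 difference of 1.89 where its partner novel_sir13289 had 2.01. novel_sir14912 and novel_sir9289 had log2 differences of 1.35 and 1.40. The member novel_sir7614 joins the last pair through the 22-nt novel_sir12307, and the region they span together is 38 bases long.

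**Figure D5:**
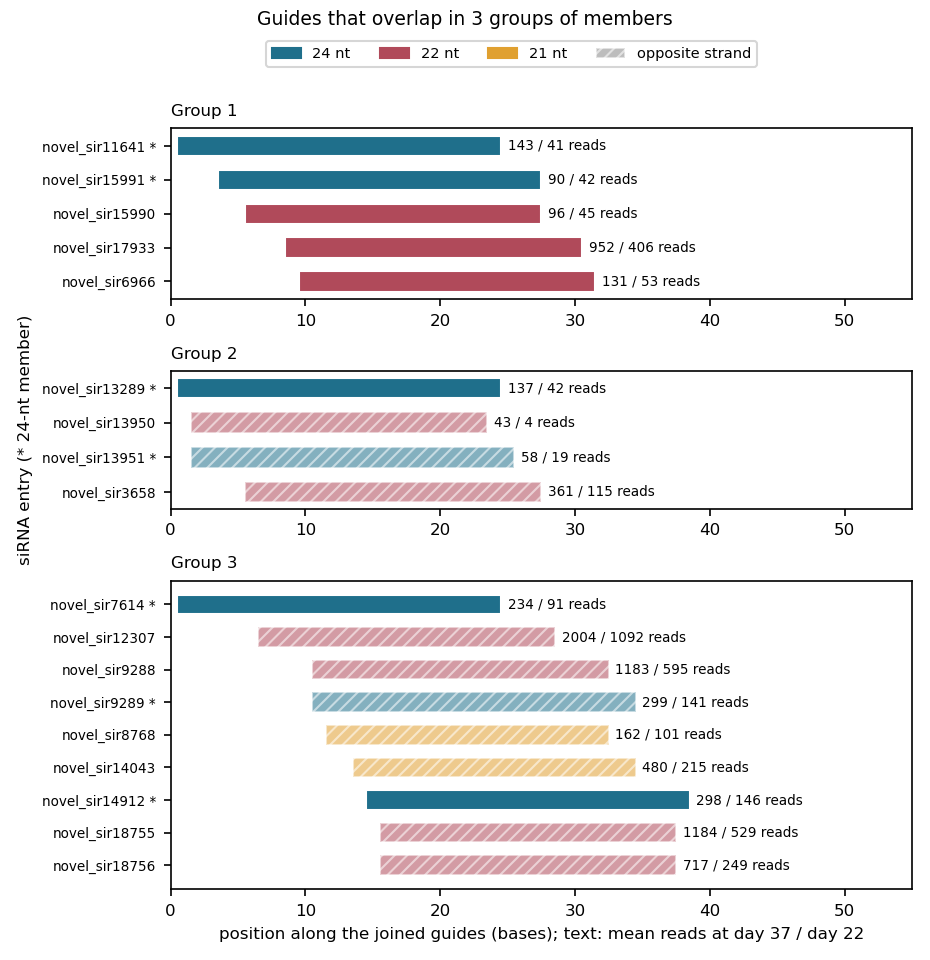
Position of the guides in the 3 groups of overlapping members (marked with an asterisk) and their neighbours, in bases along the joined sequence, hatched where the guide is on the opposite strand to the first entry, with mean reads at day 37 and day 22 beside each bar. In each group a 22-nt entry holds the most reads, 2004 at day 37 and 1092 at day 22 for novel_sir12307 in the group of novel_sir9289.

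The members were also compared with the 95 precursors of predicted miRNAs in the deposited lists. Only novel_sir17847 shared a run of 16 or more bases with one, an 18-base run in the precursor of novel_mir49, whose mature sequence of 29 nt shares 4 bases with it. The other 39 members shared no such run with any of these precursors.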

How the data were processed

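Small RNA of 18 to 30 nt was taken from a gel and sequenced with unique molecular identifiers in the 3′ adapters, per the labels' protocols. Bowtie2 is named without a version or role in the submitters' processing notes. The sources used here do not name a genome build, a counting program or filters, nor say how the identifiers were used. Per library, the deposited table holds counts per entry, per the file headers, and these were taken as reads. Its columns headed TPM sum to nearly the counts and were handled as a deposited score whose meaning is not stated, in an alternative only. Guide sequences are other values used as deposited; all 7732 siRNA entries of the count table that have a sequence are written with the guide 5′ to 3′, judged from the 2-nt overhang of the duplex. A further 3 siRNA entries have no sequence and were not classed by length. The table's 3 total rows (exon, intron, intergenic), 88% to 93.2% of a library's reads, stayed out of library sizes and tests.

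Library size was the sum of the 8473 small RNA entries. Counts were tested in edgeR 4.0.16 (R 4.3.3; quasi-likelihood F test, TMM factors, filterByExpr by day, 1 fit of all 9 libraries, Benjamini-Hochberg over 7294 entries, threshold 0.05) for day 37 against day 22, on members with 10 or more reads in all 6 later libraries. The fit was checked on simulated counts with a common spread for all entries and few changed entries. That check covers neither a broad shift between days nor entries at 0 in a whole day. Overlaps were runs of 16 or more bases. The members and lists were chosen with earlier results of these data known. Named entries are the 10 highest members, the 5 largest rises and falls, members at 0 on 1 later day, those at the limit, overlapping members and those with a repeated guide; neighbours, other single-day members and the members highest without a 21-nt or 22-nt neighbour were named after their values were seen. A bound against 0 covers neither counting error nor replicate spread nor the choice of scaling. Alternatives were other scalings, filters, DESeq2 1.42.0, the 6 later libraries, the score column, a replicate block, each library left out, other rules for members and other overlaps.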

Additional observations from a re-analysis of the deposited data

How the results depend on the processing

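The 26 members read at both later days gave 25 higher and 0 lower at day 37 against day 22 under every alternative except library totals alone, which gave 22 and 0: novel_sir17594, novel_sir17847 and novel_sir9636 were then not called, at 0.55, 0.35 and 0.77 on the log2 scale (adjusted p = 0.101, 0.0563 and 0.08). Leaving out each library in turn gave 25 to 25 higher and 0 to 0 lower. With the replicate number as a block the counts were also 25 and 0. Deviations of same-numbered libraries correlated at -0.04 to 0.15 over 9 pairs, and those of other libraries at -0.14 to 0.05 over 18 pairs. Such small values cannot settle whether the numbers pair the libraries. The log2 difference of novel_sir11457 changed sign to -0.45 with library totals, -0.27 with all reads, -0.085 with the replicate block, -0.028 with the score column, -0.22 without day 22 replicate 2 and -0.63 without day 37 replicate 3, in a range of -0.63 to 0.30 over the libraries left out; the cause was not tested.

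The rule found 28 members at 20 reads, 49 with 2 of 3 later libraries, 50 with 1 day 7 library allowed, 39 with the score column or with equal guides summed, and 40 to 47 without each library. The share that begins with A was 17.4% weighted by reads. Members that overlap an entry read at day 7 numbered 9 with runs of 20 bases and 5 with 24-nt neighbours only. The members held 0.0205% at day 37 and 0.00804% at day 22 of all reads, and 1.69% and 0.816% of reads in 24-nt entries, by construction of the denominator. Without each library the shares of small RNA reads were 0.168% to 0.177% at day 37 and 0.0764% to 0.0773% at day 22. Chosen after seeing the data, overlap limits of 14 and 20 bases gave 60.7% and 53.6% of links to 22-nt entries, and 27 and 21 members with a 21-nt or 22-nt neighbour. Members near 10 reads are at the lowest listed count, so a lower level at day 7 was not detectable at this depth.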

Other observations

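The deposited siRNA list writes its duplexes in both orders. Judged from the 2-nt overhangs, 7812 of its 19974 duplexes have the guide written 5′ to 3′ and 12162 have it written 3′ to 5′. All 40 members and every siRNA of the count table with a sequence are of the first kind, and 0 of the second kind are in the count table. First bases taken from the whole list without regard to this order would be last bases in the second kind.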
